A study of Mus musculus with 18 samples.

Results

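Sash1 encodes a large scaffold protein with an SH3 domain and sterile alpha motifs. It was examined as 1 gene among the 56953 gene identifiers counted, in all 18 libraries of the study. The gene was chosen because of its values in these libraries, so its levels and differences are a description. Where a fit over all genes called it, that is stated beside the share of all genes called and supports nothing about Sash1. RNA came from frontal cortex of the mouse line B6;D2-Tg(S100B-EGFP)1Wjt/J, in which all animals carry an EGFP transgene under the S100B promoter, including the vehicle controls. Animals were injected intraperitoneally on each of 14 days with clozapine (10 mg/kg), with risperidone (1 mg/kg) or with vehicle, from postnatal day 60 to 74, and tissue was taken on postnatal day 75. Both drugs are antipsychotics that block dopamine and serotonin receptors. Cortices of 5 animals were pooled for a replicate, and microglia, astrocyte and neuron fractions were enriched from each pool by panning on antibodies to CD45, HepaCAM and Thy1, respectively, after endothelial and oligodendrocyte lineage cells had been depleted. The 9 groups therefore hold n = 2 libraries each, 1 from batch 1 and 1 from batch 2. The labels describe the animals as both sexes in 1 place and as adult males in another.

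SASH1 belongs to the SLY family of adaptor proteins with SASH3 and SAMSN1, which are best known from lymphocytes and other blood cells. SASH1 is known as a candidate tumour suppressor that binds cortactin at the actin cytoskeleton, and as a scaffold that brings TRAF6 together with the kinases downstream of the endotoxin receptor TLR4. In brain, microglia are the cells best known for TLR4 signalling.

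Sash1 (ENSMUSG00000015305.7) lies on the minus strand of GRCm39 at chr10:8597983-8761814, with 21 exon blocks and 8568 exonic bases. The block with the lowest coordinates, chr10:8597983-8601524, holds 3542 bases, or 41.3% of the exonic length. The antisense gene Gm26674 overlaps 347 exonic bases, 4.05% of the total. The counting used no strand setting, and reads over overlapping genes were counted for each of them, so the counts of both genes may include reads of the other. Gm26674 had 20 to 218 counts per library, which was 0.636% to 5.72% of the Sash1 count, with the lowest share in the library where Sash1 was highest. The annotated noncoding genes Gm25410 and 4930553I21Rik lie within introns of Sash1 and share none of its exons.

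The window from 250 bases before to 50 after the transcript start is shown for the 3 SLY family genes. It is shown because the relatives were highest in the microglia fraction, where the median of Sash1 was lowest. The sequences are from RefSeq on GRCm38.p6, run 5′ to 3′ on the gene's strand, and have CG dinucleotides in capitals. They are chr10:8886021-8886320 (minus strand) for Sash1, chrX:48146186-48146485 (plus strand) for Sash3 and chr16:75909217-75909516 (minus strand) for Samsn1.
Sash1: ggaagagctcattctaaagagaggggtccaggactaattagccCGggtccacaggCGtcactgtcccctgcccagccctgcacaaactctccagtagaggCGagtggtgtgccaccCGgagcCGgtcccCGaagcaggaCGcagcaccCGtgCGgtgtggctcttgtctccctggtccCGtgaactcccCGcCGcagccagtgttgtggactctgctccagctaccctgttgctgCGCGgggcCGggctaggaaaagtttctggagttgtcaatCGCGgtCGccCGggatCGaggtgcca
Sash3: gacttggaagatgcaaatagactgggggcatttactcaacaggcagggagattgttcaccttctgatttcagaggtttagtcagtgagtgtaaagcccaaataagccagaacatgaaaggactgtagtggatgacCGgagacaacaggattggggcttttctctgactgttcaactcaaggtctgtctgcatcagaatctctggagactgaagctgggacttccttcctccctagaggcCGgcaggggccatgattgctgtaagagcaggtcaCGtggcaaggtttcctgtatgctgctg
Samsn1: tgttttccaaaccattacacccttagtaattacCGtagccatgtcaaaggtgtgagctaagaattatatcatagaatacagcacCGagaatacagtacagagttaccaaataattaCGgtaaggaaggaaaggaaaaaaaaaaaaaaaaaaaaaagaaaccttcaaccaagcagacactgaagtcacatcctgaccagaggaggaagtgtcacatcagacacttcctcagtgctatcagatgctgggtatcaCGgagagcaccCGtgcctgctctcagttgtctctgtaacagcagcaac
The Sash1 window held 20 CG dinucleotides, more than 73.5% of 32851 mouse promoter windows of the same length, whose median was 7. The Sash3 window held 3 and the Samsn1 window 5. The octamer GAGGAAGT, a form of the site bound by the myeloid factor PU.1, was searched on both strands and stands in 3.2% of all promoter windows. It was found in the Samsn1 window and in neither of the others. Other forms of the site were not searched.

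Depth was 4.71 to 13.39 M assigned counts per library, with a median of 7.44 M. Sash1 had 401 to 11162 counts, so that its exact 95% Poisson interval reached at most 9.92% to either side in any library, for counting error only. Levels are in CPM, counts per M assigned counts, scaled by the trimmed mean of M values (TMM) over all 18 libraries. Sums of 10 markers per cell type were highest in the fraction of that label, but no fraction was free of the others. Microglia markers summed to 2986 to 6192 CPM in the microglia fraction, 274 to 734 in the astrocyte fraction and 55.3 to 856 in the neuron fraction. Astrocyte markers summed to 1430 to 4410, 10126 to 21700 and 4069 to 10244 CPM in the same order. Neuronal markers summed to 921 to 4598, 1570 to 4128 and 5061 to 13159 CPM. In the neuron fraction the median neuronal sum (9959 CPM) lay below the median oligodendrocyte sum (12831 CPM). Oligodendrocyte markers stood at 7008 to 44077 CPM in the astrocyte and 7593 to 38759 in the neuron fraction against 475 to 2740 in the microglia fraction. In such bulk libraries, fewer cells of a type and less RNA per cell cannot be told apart.

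Sash1 was an abundant transcript in the astrocyte and neuron fractions and lower in the microglia fraction. In the microglia fraction it stood at 106 and 48.5 CPM with vehicle (batch 1, then batch 2), 201 and 104 with clozapine, and 84.9 and 46.5 with risperidone. In the astrocyte fraction the levels were 319 and 236 CPM with vehicle, 573 and 314 with clozapine, and 460 and 190 with risperidone. In the neuron fraction they were 155 and 180 CPM with vehicle, 339 and 156 with clozapine, and 431 and 1378 with risperidone. The neuron library from risperidone batch 2 stood alone, at 2.4 times the next highest of the 18 libraries, and 1.67 times without the TMM factor. The ranges of all fractions overlapped: 46.5 to 201 CPM in microglia (median 94.4), 190 to 573 in astrocytes (median 316) and 155 to 1378 in neurons (median 259). Even in microglia, Sash1 exceeded at least 89.2% of the genes tested in every library by CPM, a rank not corrected for exon length.

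**Figure D1:**
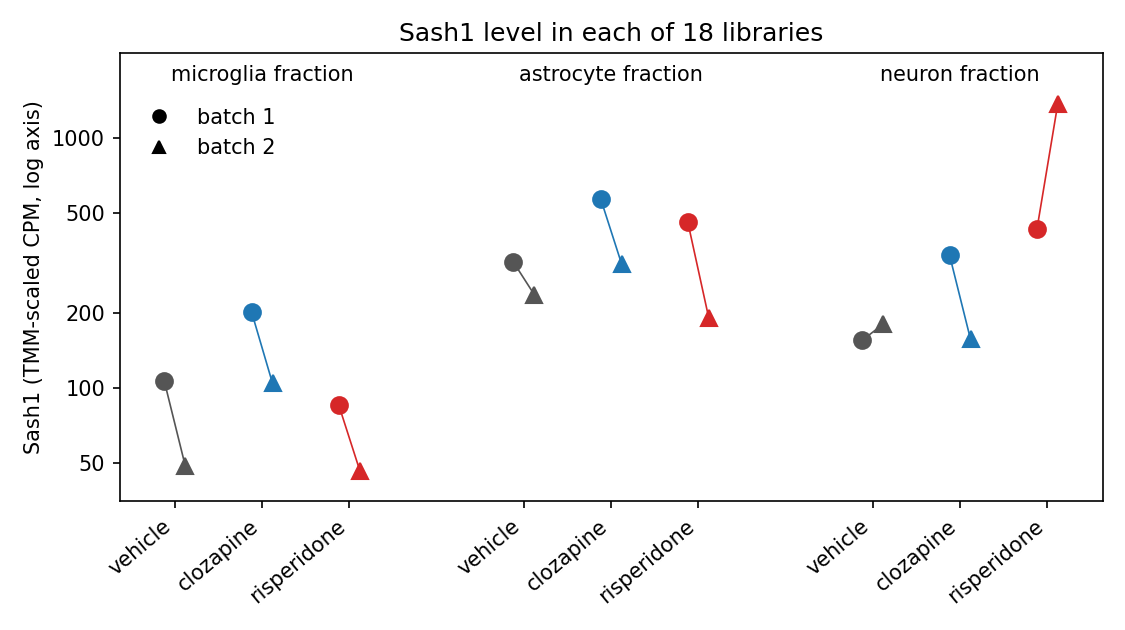
TMM-scaled CPM of Sash1 on a log axis in each of the 18 libraries, grouped by fraction and treatment, with batch 1 as circles, batch 2 as triangles and a line joining the 2 libraries of a group. Microglia libraries lie between 46.5 and 201 CPM, and the neuron library of risperidone batch 2 lies above all others at 1378.

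Ordered by group mean, Sash1 ran from neuron risperidone (905 CPM, SD 670, n = 2) through the astrocyte groups with clozapine (444, SD 184), risperidone (325, SD 191) and vehicle (277, SD 58.8). Next came the neuron groups with clozapine (248, SD 129) and vehicle (167, SD 17.5). The microglia groups were lowest, with clozapine at 153 (SD 68.7), vehicle at 77.3 (SD 40.7) and risperidone at 65.7 (SD 27.2). All 8 pairs of neighbours in this order had overlapping ranges. The SD between replicates, pooled over groups on the log2 scale, came to 0.70 for microglia, 0.66 for astrocytes and 0.83 for neurons.

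The fractions were compared to ask in which of these mixed fractions Sash1 stood highest, with all treatments weighted equally. The microglia fraction differed from the astrocyte fraction by −1.90 on the log2 scale (SE 0.36), which is 3.72-fold lower. edgeR's quasi-likelihood test called Sash1 in this comparison, as it did 13% of the 37310 genes tested, where called means an adjusted p under 0.05. Microglia lay below astrocytes in 6 of 6 pools, by −2.44 to −1.51. The highest microglia library (201 CPM) still exceeded the lowest astrocyte library (190 CPM). Astrocyte marker sums moved with Sash1 in part over the microglia libraries. They were 2565 and 1973 CPM with vehicle, 4410 and 2567 with clozapine, and 3478 and 1430 with risperidone. Clozapine batch 1 was highest and risperidone batch 2 lowest in both measures, whereas risperidone batch 1 had the next highest marker sum and less Sash1 (84.9 CPM) than vehicle batch 1 (106 CPM). The part of astrocyte RNA in the microglia values was not tested.

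Against the neuron fraction, microglia differed by −1.87 (SE 0.36), with Sash1 again among the genes called, here 47.1% of those tested. The median difference of all genes in this comparison was 0.62. Microglia lay below neurons in 6 of 6 pools, but the size ran from −0.55 to −4.88, the largest being that of the risperidone batch 2 pool. Without the neuron library of that pool the difference was −1.45, and among the 6 vehicle libraries alone it was −1.12 (SE 0.54). In those 6 libraries Sash1 was called in neither microglia comparison, the astrocyte one standing at −1.77 (SE 0.55). With library totals in place of TMM factors, the difference from neurons over all 18 libraries was −1.26. Astrocyte and neuron fractions differed by 0.03 (SE 0.35), in a comparison where 23.7% of genes were called. Behind that near-zero value, astrocytes were higher by 0.10 to 1.04 in 5 of the 6 pools and lower by −2.86 in the risperidone batch 2 pool.

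The relatives of Sash1 were highest in the microglia fraction, where the median of Sash1 was lowest. Like Sash1, both had a higher median in astrocytes than in neurons. Sash3, an adaptor of lymphocyte signalling, stood at 23.9 to 35.5 CPM in microglia, 1.12 to 9.04 in astrocytes and 0.212 to 6.97 in neurons. Samsn1, an adaptor found in haematopoietic cells, stood at 34 to 78.3, 1.91 to 8.69 and 0.612 to 10.1 CPM. In the same order of fractions, 5 erythrocyte genes summed to 1062 to 13946, 157 to 411 and 43.4 to 342 CPM. No lymphocyte markers were summed, and the part of blood cells in the values of Sash3 and Samsn1 was not tested. For both genes every microglia library lay above every library of the other fractions, as for 5.6% of all genes against astrocytes and 10.5% against neurons. Sash3 was higher in microglia by 3.20 (SE 0.40) against astrocytes (edgeR adjusted p = 8.27e-06) and by 3.99 (SE 0.43) against neurons (5.91e-07). Samsn1 was higher by 3.06 (SE 0.34; edgeR adjusted p = 3.19e-06) and 4.35 (SE 0.37; 9.85e-08). Between astrocytes and neurons only Samsn1 was called, at 1.29 (SE 0.37; edgeR adjusted p = 0.0168), while Sash3 differed by 0.79 (SE 0.43; 0.17).

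Per kb of exon, which allows levels of different genes to be compared, the microglia medians were 11 CPM per kb for Sash1, 11.8 for Sash3 and 9.03 for Samsn1. In astrocytes the medians were 36.9, 1.09 and 1.26, and in neurons 30.3, 0.692 and 0.379. The 3 genes were thus at similar levels in the microglia fraction, whereas Sash1 was the most abundant of the family in the other fractions.

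**Figure D2:**
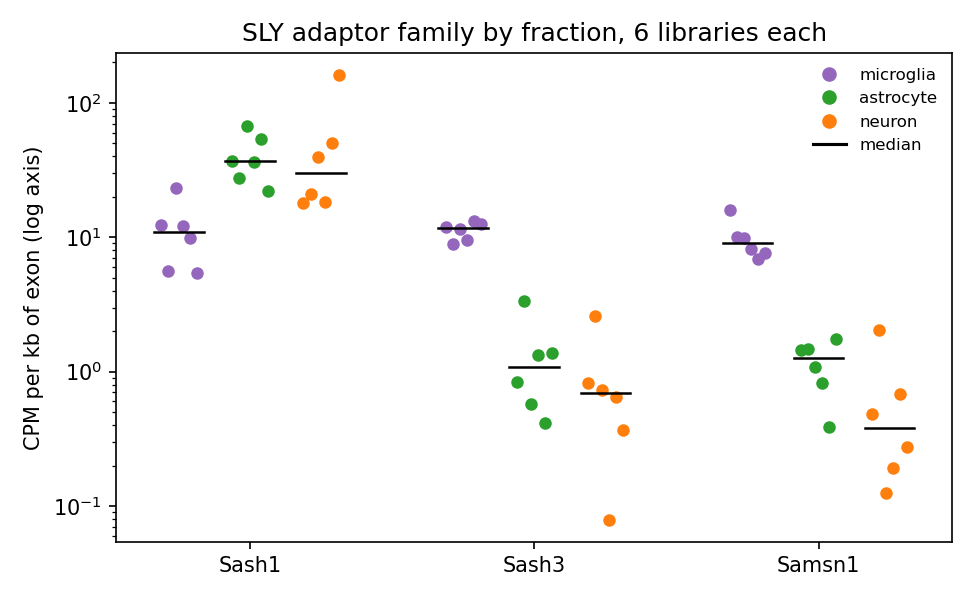
CPM per kb of exon on a log axis for Sash1, Sash3 and Samsn1, with 6 libraries per fraction as points and the median as a bar. Sash1 has its lowest median in microglia (11 CPM per kb), and Sash3 and Samsn1 have their highest there (11.8 and 9.03).

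Genes of 5 proteins that SASH1 is known to work with were examined next. Of these partners, 1 was higher and 1 lower in microglia than in astrocytes, where 6.18% of all genes were called higher and 6.85% lower. Iqgap1, an actin and calmodulin scaffold, was higher by 1.02 (SE 0.23; edgeR adjusted p = 0.00277), and Cttn, which encodes cortactin, differed by −0.96 (SE 0.22; 0.00362). Crkl, an adaptor of tyrosine kinase signalling, differed by −0.12, Gnas, the stimulatory G protein subunit, by −0.22, and the tankyrase gene Tnks2 by −0.14, none of them called. The list median was −0.14 against 0.02 for all genes. Against neurons Iqgap1 was higher by 1.19, and 3 partners were lower, Cttn by −1.26, Gnas by −1.31 and Tnks2 by −0.65, where 28.2% of all genes were called higher and 18.8% lower. The list median against neurons was −0.65 and that of all genes 0.62. Between astrocytes and neurons Gnas alone was called, at −1.09 (SE 0.31; edgeR adjusted p = 0.0172). Cttn, like Sash1, had its lowest levels in microglia, at 31.5 to 51.1 CPM against 55.8 to 94.5 in astrocytes and 73.8 to 118 in neurons. Its microglia libraries did not overlap with those of either other fraction, as for 3.91% of genes lower in microglia than in astrocytes and 10.5% lower than in neurons.

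Genes of the TLR4-TRAF6 pathway were either called higher in microglia than in the other fractions or not called. Sums of 10 genes known to respond to cell dissociation, among them Fos and Jun, were also highest in microglia. They were 2440 to 6978 CPM there, 1043 to 2850 in astrocytes and 912 to 2523 in neurons. The part of dissociation in the pathway values was not tested. Of 21 genes, 10 were called higher and 0 lower in microglia than in astrocytes, beside the same shares of all genes (6.18% and 6.85%). The list median was 0.59 against 0.02 for all genes. The endotoxin co-receptor Cd14 was at 399 to 601 CPM in microglia and 7.27 to 82.2 in astrocytes, a difference of 4.17 (SE 0.65; edgeR adjusted p = 6.38e-05). The NF-κB subunit genes Nfkb1 and Rela differed by 3.01 (SE 0.39) and 1.94 (SE 0.30), and the inhibitor Nfkbia by 3.26 (SE 0.46). Irak3, a brake on the pathway's kinases, differed by 1.87 (SE 0.30). Tlr4 and Traf6 are named outside the rule for this list, after their values were seen, for their place in the pathway. The receptor gene Tlr4 was called, at 2.09 (SE 0.41). Traf6, the ubiquitin ligase that SASH1 binds, differed by 0.47 (SE 0.20; edgeR adjusted p = 0.141).

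Against neurons, 12 of the 21 pathway genes were higher in microglia and 0 lower, beside 28.2% and 18.8% of all genes. The list median was 0.92 against 0.62 for all genes. Irak2, a pathway kinase, differed by 2.18 (SE 0.25), Nfkbia by 4.04 (SE 0.47), the adaptor Myd88 by 1.90 (SE 0.24), Tlr4 by 3.52 (SE 0.45) and Irak3 by 2.39 (SE 0.30). Between astrocytes and neurons 5 pathway genes were higher in astrocytes and 1 lower, where 14.6% and 9.17% of all genes were called. The lower gene was Tab3, a subunit of the TAK1 kinase complex (−0.97, SE 0.21; edgeR adjusted p = 0.00506). Irak2, Tlr4, Irak4 and Myd88 were higher by 0.87, 1.42, 0.99 and 0.73. With Samsn1 and Gnas included, 8 listed genes were called between astrocytes and neurons, beside 23.7% of all genes. Both counts were lower without replicate 2 of any of these groups: astrocyte vehicle, astrocyte clozapine, astrocyte risperidone, neuron clozapine or neuron risperidone.

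**Figure D3:**
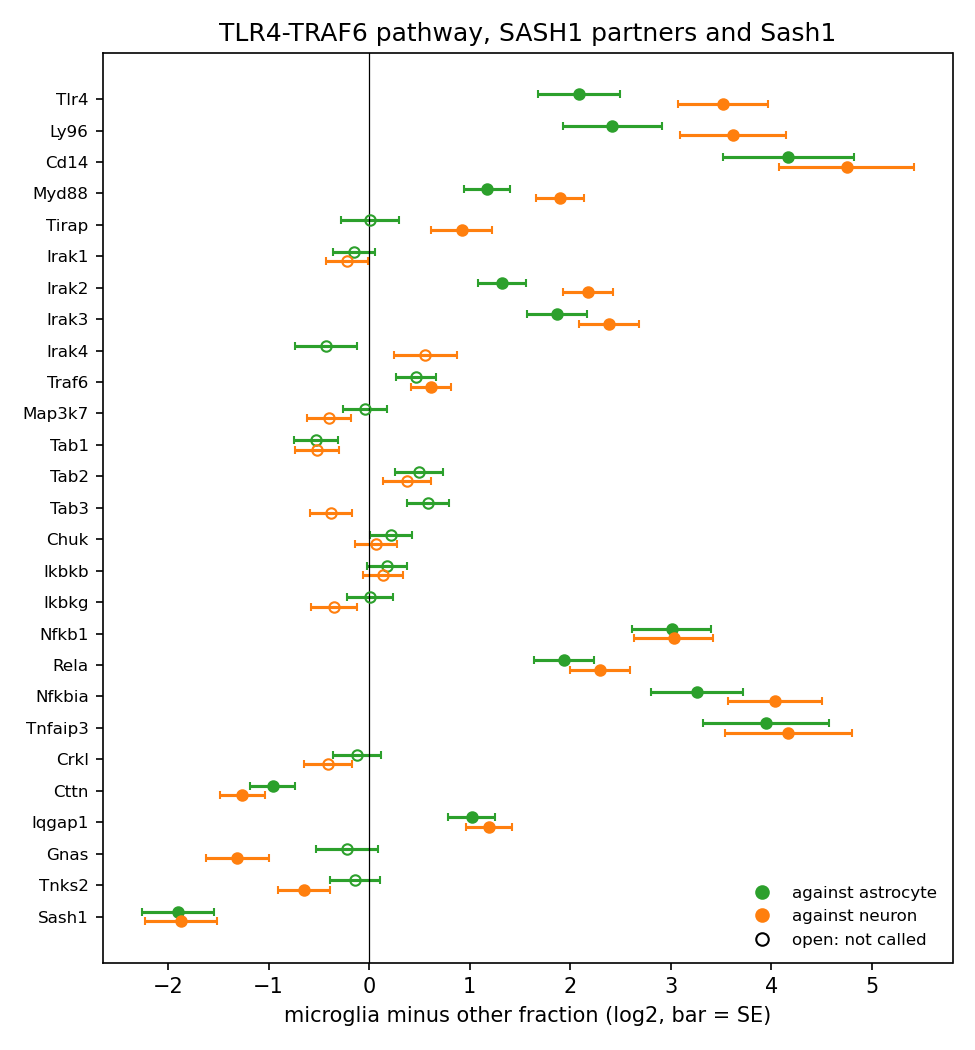
Log2 difference of microglia against astrocytes and against neurons for 21 TLR4-TRAF6 pathway genes, 5 SASH1 partners and Sash1, with bars for the SE and filled points for genes called by edgeR. Sash1 lies at −1.90 and −1.87, while Cd14, Nfkb1 and Nfkbia lie above 3.

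The drug comparisons asked how Sash1 differed after clozapine or risperidone within each fraction. In none of the 9 comparisons within a fraction did edgeR call any gene (0% of 25510 to 32846 tested), with 200 to 2425 genes at an unadjusted p under 0.05 and 0 to 20 called by DESeq2. Both drugs share the same vehicle libraries within a fraction. In neurons, both risperidone libraries (431 and 1378 CPM) lay above both vehicle libraries (155 and 180 CPM). Risperidone lay above vehicle without overlap for 7.72% of the genes tested. The difference was 2.36 (SE 0.57), a 5.12-fold higher level, with 1.53 within batch 1 and 2.84 within batch 2. DESeq2 estimated 2.39 (SE 0.47) and called 7 genes, 0.0274% of those tested, Sash1 among them. edgeR without a filter on low counts called 47 genes (0.094%), again with Sash1 among them. Sash1 was chosen on these values, so neither call is evidence of its own.

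The size of the neuron value rested on 1 library. Without neuron risperidone replicate 2 the difference was 1.42 (SE 0.48). The TMM factor of neuron risperidone replicate 2 was 0.661, the lowest of all 18. Without scaling the neuron levels were 454 and 911 CPM with risperidone against 142 and 131 with vehicle, and the difference was 2.32. The same pool had the lowest TMM-scaled Sash1 level of all 6 libraries in each of the other fractions, 46.5 CPM in microglia and 190 in astrocytes. Without scaling, that microglia library had 64.1 CPM and vehicle batch 2 was lowest at 56.1. The astrocyte library stayed lowest, at 264.

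Marker sums in the neuron fraction are given beside this result. Astrocyte markers summed to 4710 and 10244 CPM with risperidone and 4069 and 9221 with vehicle, and 8 of 10 had a positive difference (median 0.11). Neuronal markers summed to 5061 and 12069 against 6578 and 10995, with 3 of 10 positive (median −0.15). Microglia markers were at 143 and 305 against 93.3 and 856, with 0 of 10 positive (median −1.05). Oligodendrocyte markers were at 16554 and 9109 against 19656 and 7645 (3 of 10 positive, median −0.08). Of 10 endothelial markers 4 were positive (median −0.12). The part of other cell types in the neuron value was not tested.

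Genes around the locus were examined for the same comparison. edgeR called no gene between risperidone and vehicle in neurons (0% of 25510), so no calls are read for the 8 protein-coding neighbours within 1 Mb. The nearest on either side and Tab2 are given by their differences. The largest difference among the 8 was that of Zc3h12d, at 1.08 (SE 1.63), with 0 to 5.82 CPM in these libraries. Ust, a uronyl sulfotransferase gene 203 kb away, stood at 12.1 and 17.9 CPM with risperidone and 11.7 and 16.4 with vehicle, a difference of 0.06 (SE 0.36). Samd5, 737 kb away on the other side, differed by 0.42 (SE 0.36). Tab2, a TRAF6 pathway gene 766 kb away, differed by −0.18 (SE 0.35).

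Clozapine in neurons gave no common direction. Sash1 stood at 339 CPM against 155 with vehicle in batch 1 and at 156 against 180 in batch 2. The difference was 0.54 (SE 0.55), with 1.07 and −0.23 within batches, and −0.15 without neuron clozapine replicate 1. Astrocyte markers had the same direction in each batch, at 7033 against 4069 CPM in batch 1 and 5201 against 9221 in batch 2. Oligodendrocyte markers were at 38759 against 19656 and 7593 against 7645 CPM. Their part in these values was not tested. Between the drugs, both clozapine libraries (339 and 156 CPM) lay below both risperidone libraries, as for 15% of genes. The difference was −1.82 (SE 0.56; −0.46 and −3.08 within batches), and −0.90 without neuron risperidone replicate 2.

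In microglia the higher values came with clozapine. Both batches had about the same difference from vehicle, 0.88 and 1.03, with 0.93 in the fit (SE 0.45), a 1.9-fold higher level. A gene was higher with clozapine in both batches for 24.8% of those tested. The groups overlapped, because vehicle batch 1 (106 CPM) exceeded clozapine batch 2 (104 CPM). Astrocyte markers in these libraries summed to 4410 and 2567 CPM with clozapine and 2565 and 1973 with vehicle, and oligodendrocyte markers to 2740 and 993 against 976 and 1032. Their part in the microglia value was not tested. With 1 library left out, in fits with no batch term, the clozapine difference ran from 0.40 without clozapine replicate 1 to 1.55 without vehicle replicate 1. Risperidone differed from vehicle by −0.16 (SE 0.44; −0.23 and −0.04 within batches), and by 0.01 with library totals in place of TMM factors. It was 0.41 without vehicle replicate 1, 0.20 without risperidone replicate 2, and −0.68 without risperidone replicate 1. Clozapine exceeded risperidone by 1.09 (SE 0.45; 1.10 and 1.06 within batches), with 0.61 to 1.62 when 1 library was left out, and the 2 clozapine libraries lay above both risperidone libraries, as for 17.7% of genes.

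In astrocytes no drug group was separated from vehicle. Clozapine differed by 0.66 (SE 0.56; 0.85 and 0.37 within batches), and its lower library (314 CPM) lay just below the higher vehicle library (319 CPM). Risperidone differed by 0.24 (SE 0.55), with 0.55 in batch 1 and −0.32 in batch 2, and by −0.54 without astrocyte risperidone replicate 1. Clozapine exceeded risperidone by 0.42 (SE 0.56; 0.30 and 0.68 within batches), and by 1.22 without that library. The astrocyte library with risperidone in batch 1 also had the highest astrocyte and oligodendrocyte marker sums of its fraction, 21700 and 44077 CPM.

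**Figure D4:**
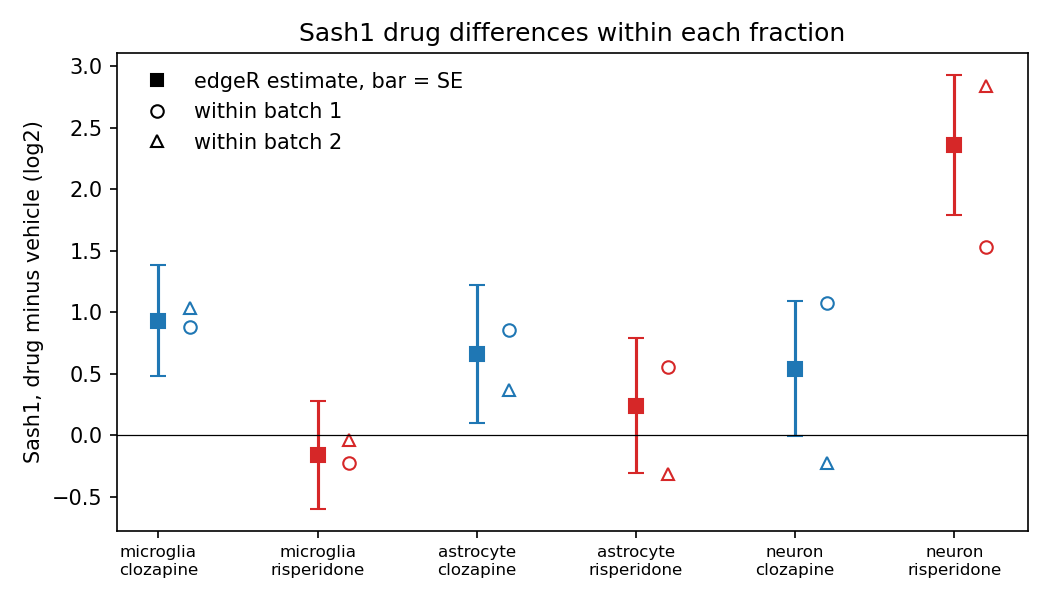
Log2 difference of Sash1 between each drug and vehicle in each fraction, with squares for the edgeR estimate, bars for its SE, open circles for batch 1 and open triangles for batch 2. Neuron risperidone lies at 2.36, with 1.53 and 2.84 within batches, and the other 5 estimates lie between −0.16 and 0.93.

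The drug differences were set against each other between fractions in a fit of all 18 libraries. The risperidone difference of Sash1 was larger in neurons than in microglia by 2.67 (SE 0.88) and larger than in astrocytes by 2.20 (SE 0.87). edgeR called 0% of genes in the first contrast, with 649 at an unadjusted p under 0.05 and 1 called by DESeq2, and 0.00268% in the second, without Sash1. Without neuron risperidone replicate 2 the values were 1.52 (SE 0.86) and 1.00 (SE 0.86). Astrocytes exceeded microglia by 0.46 (SE 0.87) in the risperidone difference, and by −0.35 without astrocyte risperidone replicate 1. For clozapine the 3 contrasts lay between −0.42 and −0.11, each with an SE of 0.86. The neuron and astrocyte clozapine differences differed by −0.88 without neuron clozapine replicate 1.

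For the listed family, partner and pathway genes, edgeR and DESeq2 each called 0 of 246 values over the 9 drug comparisons, with 11 at an unadjusted p under 0.05 in edgeR. Since edgeR called 0% of all genes there too, the count describes the comparisons and not these genes. For risperidone in neurons the list medians were −0.18 for the partners, −1.54 for Sash3 and Samsn1, and −0.23 for the pathway genes, against 0.00 for all genes. Both relatives had 2 to 84 counts in the neuron libraries. Neuron vehicle replicate 2 had 856 CPM of microglia markers and replicate 1 had 93.3. Without replicate 1, edgeR calls in neurons rose for both drugs over all genes as well as over the listed genes. Calls over all genes also rose for both drugs without replicate 2, though by less.

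Batch was the other axis along which Sash1 varied. In microglia the batch 2 library was lower in all 3 treatments, by −1.07 with vehicle, −0.92 with clozapine and −0.88 with risperidone, a pattern shared by 19% of genes. The fitted difference was −0.96 (SE 0.19), and edgeR called Sash1 together with 4.25% of genes. It was not called in a fit of all 18 libraries (−0.98, SE 0.33) or without the treatment term (−0.95, SE 0.29). In astrocytes batch 2 was also lower in all 3 treatments (−0.39, −0.87 and −1.25), as for 21.5% of genes. The difference there was −0.84 (SE 0.30), not called by edgeR, which called 5.64% of genes, and called by DESeq2 with 8.81% of genes. Leaving out either library of a treatment takes that treatment out of the batch estimate. In such fits the astrocyte difference ran from −1.09 to −0.64, and was −0.85 without astrocyte clozapine replicate 1 or replicate 2. It was −0.38 with library totals in place of TMM factors. In neurons the batches had no common direction, with 0.11 for vehicle, −1.20 for clozapine and 1.42 for risperidone, and a fitted difference of 0.11 (SE 0.40) where 0.333% of genes were called. It was 0.83 and 0.84 without neuron clozapine replicate 1 or 2, and −0.52 and −0.50 without neuron risperidone replicate 1 or 2. Astrocyte markers were lower in batch 2 in all 3 treatments of both the microglia and the astrocyte fraction. In the microglia fraction, microglia markers were also lower in batch 2 in all 3 treatments. Neuronal markers there went the other way, from 1321 to 3051 CPM with vehicle, 1409 to 4598 with clozapine and 921 to 1783 with risperidone. Oligodendrocyte markers there went from 976 to 1032, 2740 to 993 and 1767 to 475 CPM. In the astrocyte fraction oligodendrocyte markers went from 31696 to 7008 CPM with vehicle, 27988 to 10807 with clozapine and 44077 to 9059 with risperidone. In the microglia fraction 5 erythrocyte genes went from a sum of 13946 to 1370 CPM, 9414 to 4655 and 5145 to 1062 in the same order. The part of these markers in the batch difference was not tested.

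The genes whose levels over the 18 libraries were most like those of Sash1 were Idh1, Dbp, Sec14l2, Rnf5 and Eps8l3. Pearson's r of log2 CPM with Sash1 was 0.89 for Idh1 and Dbp, 0.88 for Sec14l2, and 0.87 for Rnf5 and Eps8l3, the highest of 12723 genes compared. Idh1 encodes cytosolic isocitrate dehydrogenase and Dbp a transcription factor of the circadian clock's output. The lowest values were −0.82 for Slc31a2 and −0.81 for Dleu2 and Ehbp1l1. With the mean of each fraction subtracted, Idh1 and Pbxip1 were at 0.80, Nat10 at 0.79, and Ccn1 and Dbp at 0.78, and the lowest were Cpa6 (−0.75), Adamts19 (−0.73) and Cdhr1 (−0.72). These points share pools, fractions and batches and are described without a test. Neuron risperidone replicate 2 also held the highest of the 4 neuron values for Idh1 in the vehicle and risperidone groups, at 109 CPM against 45.1 and 65.9 with vehicle and 50.9 in risperidone batch 1. For Dbp they were 97.3 against 39.5, 53 and 44.2 CPM. Without that library r was 0.92 for Idh1 and 0.87 for Dbp as measured, and the r of Cpa6 went from −0.75 to −0.49.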

How the data were processed

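The authors deposited 1 table of raw gene counts per library, per the file headers made with featureCounts v2.0.8 on GRCm39 over exons by gene identifier, with overlapping genes both counted and no strand setting. The headers hold no setting that counts read pairs as 1. FastQC was used per the submitters' processing notes, and which aligner was run is not given in the sources here. Symbols came from a list of gene names matched by identifier (52029 of 56953, 96.2% of counts), and gene types from GENCODE vM21.

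Counts were analysed in R 4.3.3 with edgeR 4.0.16: filterByExpr, TMM, the quasi-likelihood test and Benjamini-Hochberg adjustment over all genes tested, with DESeq2 1.42.0 as an alternative. Fractions were compared in 1 fit of 18 libraries (9 residual degrees of freedom), drugs within a fraction (3 degrees of freedom), and batches with treatment as a term. SE is the absolute log2 difference over the square root of F. Within-batch differences are log2 CPM with a prior count of 2 and TMM per fraction. Alternatives were DESeq2, RLE scaling, library totals, no filter on low counts, a replicate block, other sets of libraries in the fit, and each library left out. Scripts were tested on simulated data. Pools of 5 animals are the replicates.

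Sash1 and the gene lists were chosen with earlier results of these data known. Up to 5 genes of a list were named per comparison, those called first by p, and family members always; Tlr4 and Traf6 against astrocytes were added after their values were seen. Likeness was taken over genes with a mean of at least 5 CPM.

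The labels tie replicate numbers to a batch, and the series design takes the 3 fractions of a treatment from the same pool. Deviations from group means correlated at 0.17 to 0.70 between same-batch libraries of a fraction, and at −0.23 to 0.35 between fractions of a pool.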

Additional observations from a re-analysis of the deposited data

Results flagged for a closer look

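The risperidone difference of Sash1 was larger in neurons than in microglia by 2.67 on the log2 scale (SE 0.88). Both neuron risperidone libraries lay above vehicle in their batch, and both microglia risperidone libraries lay below. The contrast between fractions was not called by edgeR over 37310 genes, and was 1.52 (SE 0.86) without neuron risperidone replicate 2. The microglia differences were −0.23 and −0.04 within batches, within the spread between replicates. Without TMM factors the batch 2 microglia library had 64.1 CPM with risperidone and 56.1 with vehicle, so the microglia direction turned there.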

How the results depend on the processing

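Of 354 alternative values of Sash1 over 21 differences, 344 stayed within the replicate SD of the value reported, and 10 moved further. That SD was 0.66 to 0.83 by fraction, larger than several of the differences, so a value could stay within it and change sign. Clozapine against vehicle in neurons, for example, went from 0.54 to −0.15 without neuron clozapine replicate 1. The vehicle libraries alone gave −1.12 for microglia against neurons. Leaving out 1 library gave 1.42 to 2.95 for risperidone and −2.54 to −0.90 for clozapine against risperidone in neurons, and −0.54 to 0.76 and −0.07 to 1.22 for the same contrasts in astrocytes (risperidone against vehicle, clozapine against risperidone). The risperidone contrasts ranged from 1.52 to 3.22 (neurons against microglia), 1.00 to 2.95 (neurons against astrocytes) and −0.35 to 1.12 (astrocytes against microglia), and the clozapine contrast of neurons against astrocytes from −0.88 to 0.35.

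Listed genes called were 14, 18 and 8 for microglia against astrocytes, microglia against neurons and astrocytes against neurons. They were 2, 7 and 0 in vehicle libraries alone. For astrocytes against neurons they changed with 1 library left out, as did the calls over all genes. Without a low-count filter, 2 and 1 were called in astrocytes (clozapine against vehicle, against risperidone) and 3 and 2 in neurons (clozapine, risperidone). Leaving out 1 library gave 0 to 6 and 0 to 4 for these neuron comparisons. The causes were not tested.

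With the pool as a replicate block, listed calls between astrocytes and neurons were 5 in place of 8, and Sash1 differed by −1.91 between microglia and astrocytes. With batch as a replicate block, Sash1 differed by 2.33 (SE 0.48) for risperidone in neurons and by 0.95 (SE 0.23) for clozapine in microglia.

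Over all genes, edgeR called 4861, 17558 and 8856 for the 3 fraction comparisons in the same order, against 715, 1810 and 1 in vehicle libraries alone. For astrocytes against neurons it called 5598 with the pool as a block and 3877 to 13434 with 1 library left out. Within fractions, where 0 genes were called, no low-count filter gave 4 to 171, batch as a block 0 to 10 and DESeq2 0 to 20. With 1 library left out, edgeR called up to 266 for clozapine and 145 for risperidone in neurons, both without neuron vehicle replicate 1.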
